A study of Mus musculus with 12 samples.

Results

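The signals of 4 fibroblast growth factor (FGF) genes, Fgf15, Fgf8, Fgf5 and Fgf4, and of the receptor gene Fgfr1 were followed across mouse embryoid bodies that differed in genotype and in activin signalling. The 5 genes were taken by name. They are measured by 11 of the 45037 probe sets of the array that are not controls, and they are 5 of the 18193 genes tested. Fgf15 and Fgf8 have 1 probe set each.

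FGF ligands are secreted proteins that bind receptor tyrosine kinases encoded by the Fgfr genes. The bound receptor recruits adaptors such as Grb2, Gab1 and the phosphatase Ptpn11, the exchange factors Sos1 and Sos2 switch on Ras, and the kinase cascade ends in ERK. ERK activity raises the genes of its own inhibitors, among them the Sprouty, Spred and Dusp families, and Ets factors such as Etv4. In mouse embryonic stem cells Fgf4 is the autocrine ligand that prompts exit from the naive state, and Fgf5 is a classical marker of the epiblast that follows. Fgf8 is made in the primitive streak and is needed for mesoderm cells to leave it. Fgf15, the mouse counterpart of human FGF19, is best known as a hormone of the ileum that restrains bile acid synthesis, and is also made in the early embryo. Fgfr1 is a main receptor for these signals in embryonic stem cells and the epiblast.

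Embryoid bodies, floating aggregates in which embryonic stem cells differentiate once the cytokine LIF is withdrawn, were grown from strain 129 cells to day 2.5. The cells were Smad4-null, had Trim33 knocked down (Trim33-KD), or were wild type (WT). Smad4 is the common partner of the Smad proteins that carry activin and nodal signals, and Trim33 is a chromatin-binding protein that pairs with Smad2 and Smad3. Each genotype received for 2 h either activin at 50 ng/ml (groups Smad4-null-ac, Trim33-KD-ac and WT-ac) or SB431542, an inhibitor of the activin and nodal type I receptors (Smad4-null-SB, Trim33-KD-SB and WT-SB), which the labels give at 10 mM. There was no untreated group, so a response is activin minus SB431542 and cannot be divided between the agents. The labels do not say how the Smad4 gene was disrupted, how Trim33 was knocked down, how many clones were used, or whether the 2 replicates of a group came from different cultures, so the p-values may cover technical spread alone.

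Total RNA was hybridized to 12 Affymetrix arrays, 2 for each of the 6 groups. Values are the deposited log2 signals of the probe set with the highest mean of a gene, so 1 unit is a doubling, and levels are compared only within a probe set. Tests are from limma, fitted to all genes and arrays at once, and a gene is called where the Benjamini-Hochberg adjusted p over the 18193 genes is under 0.05. The number of arrays limits the precision. Trim33 kept 34.4% and 30.3% of its WT signal in Trim33-KD by its 2 brighter probe sets. In Smad4-null arrays the 3 Smad4 probe sets read between 101% and 115% of WT, and since the disrupted segment is not known these probe sets do not check the label. The spread of log2 signal was narrower on Smad4-null-ac replicate 1 (SD 3.13) and WT-SB replicate 2 (SD 3.07) than on the other arrays (3.24 to 3.39). For Actb, the 3' minus 5' signal difference, which grows with RNA breakdown, reached 0.74 (Trim33-KD-SB replicate 2) and 0.67 (WT-SB replicate 2), and was 0.31 to 0.53 elsewhere. The part of these array features in the results was not tested beyond leaving arrays out.

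Fgf15 alone of the 5 genes had a response to activin that passed the test. In Smad4-null the signal was 9.50 and 9.54 with activin, against 8.84 and 8.93 with SB431542. In Trim33-KD it was 9.64 and 9.74 with activin, against 7.32 and 6.94 with SB431542. In WT it was 10.14 and 10.11 with activin, against 7.85 and 7.91 with SB431542. The activin arrays lay above the SB431542 arrays in every genotype, and the gap was the smallest in Smad4-null. The share of all genes with such an order is not given here. In Smad4-null the ratio was 1.55 (log2 difference 0.63, 95% interval 0.31 to 0.95, limma adjusted p = 0.396). Fgf15 rose 5.91-fold in Trim33-KD (2.56, SE 0.14, limma adjusted p = 0.00311) and 4.74-fold in WT (2.24, SE 0.14, limma adjusted p = 0.00449). Over all genes, limma called 0.011% in the Smad4-null response, 0.011% in the Trim33-KD response and 0.033% in the WT response. Fgf15 is 1 of the 2 genes behind the Trim33-KD share and 1 of the 6 behind the WT share.

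The Fgf15 calls depend on few arrays. The WT response did not pass without WT-ac replicate 1 (limma adjusted p = 0.0996), WT-ac replicate 2 (0.110) or WT-SB replicate 2 (0.0745), with a log2 difference of 2.23, 2.26 and 2.27. The Trim33-KD response did not pass without Trim33-KD-ac replicate 2 (log2 difference 2.51, limma adjusted p = 0.0820). Without both arrays of narrow spread the values were 2.56 in Trim33-KD (limma adjusted p = 0.125) and 2.27 in WT (0.143). With only the groups compared in the fit the differences were as above and limma's adjusted p was 0.525 in Trim33-KD and 0.628 in WT.

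The response of Fgf15 in Smad4-null minus that in WT was -1.61 on the log2 scale (95% interval -2.07 to -1.16), with an unadjusted limma p of 5.33e-05 and an adjusted p of 0.226. The Trim33-KD response minus the Smad4-null response was 1.93 (95% interval 1.47 to 2.39, limma adjusted p = 0.187). The Trim33-KD response minus the WT response was 0.32, with an interval of -0.14 to 0.78. In these 3 tests of a difference between responses, limma called 0 genes (0% of all tested), while the unadjusted p was under 0.05 for 1317, 1117 and 485 genes, in the order given here. Among the 9096 genes in the upper 50% by mean signal, Fgf15 passed in the Smad4-null minus WT difference (limma adjusted p = 0.0129; 0.044% of those genes called) and in the Trim33-KD minus Smad4-null difference (0.00377; 0.011% called). These 3 contrasts share arrays, so they are not separate evidence.

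Read by treatment, Fgf15 differed between Smad4-null and WT in opposite directions. With SB431542 the Smad4-null arrays were 2.01-fold above the WT arrays (log2 difference 1.01, limma adjusted p = 0.00696). With activin they were 1.52-fold below them (-0.60, limma adjusted p = 0.0375). Limma called 9.1% of all genes in the SB431542 comparison and 9.29% in the activin comparison. The call with SB431542 was lost without Smad4-null-SB replicate 2 (0.96, limma adjusted p = 0.0572), without both arrays of narrow spread (1.04, 0.0641), with only the groups compared in the fit (0.126) and when tested against a 1.5-fold difference (0.277). The call with activin was lost in 10 of the 12 fits that left out 1 array, including all 4 that left out a WT-ac or Smad4-null-ac array, with limma adjusted p between 0.0216 and 0.159 and a log2 difference between -0.62 and -0.59. It was also lost in 6 of the 14 other settings, among them the fit without both arrays of narrow spread (-0.59, limma adjusted p = 0.181). Averaged over the treatments, Smad4-null minus WT was 0.20 (95% interval -0.03 to 0.43, limma adjusted p = 0.212).

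Ordered by group mean, Fgf15 ran from WT-ac (10.12) over Trim33-KD-ac (9.69), Smad4-null-ac (9.52), Smad4-null-SB (8.89) and WT-SB (7.88) to Trim33-KD-SB (7.13). No 2 neighbours in this order had overlapping arrays. With 2 arrays a group such separation can arise without a difference, and its share over all genes is not given here. The SD within a group was between 0.02 and 0.27 (n = 2). Trim33-KD minus WT was -0.75 with SB431542 (limma adjusted p = 0.188), where limma called 0% of genes (1961 at an unadjusted p under 0.05), and -0.44 with activin (limma adjusted p = 0.424), where it called 0.0055%.

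**Figure D1:**
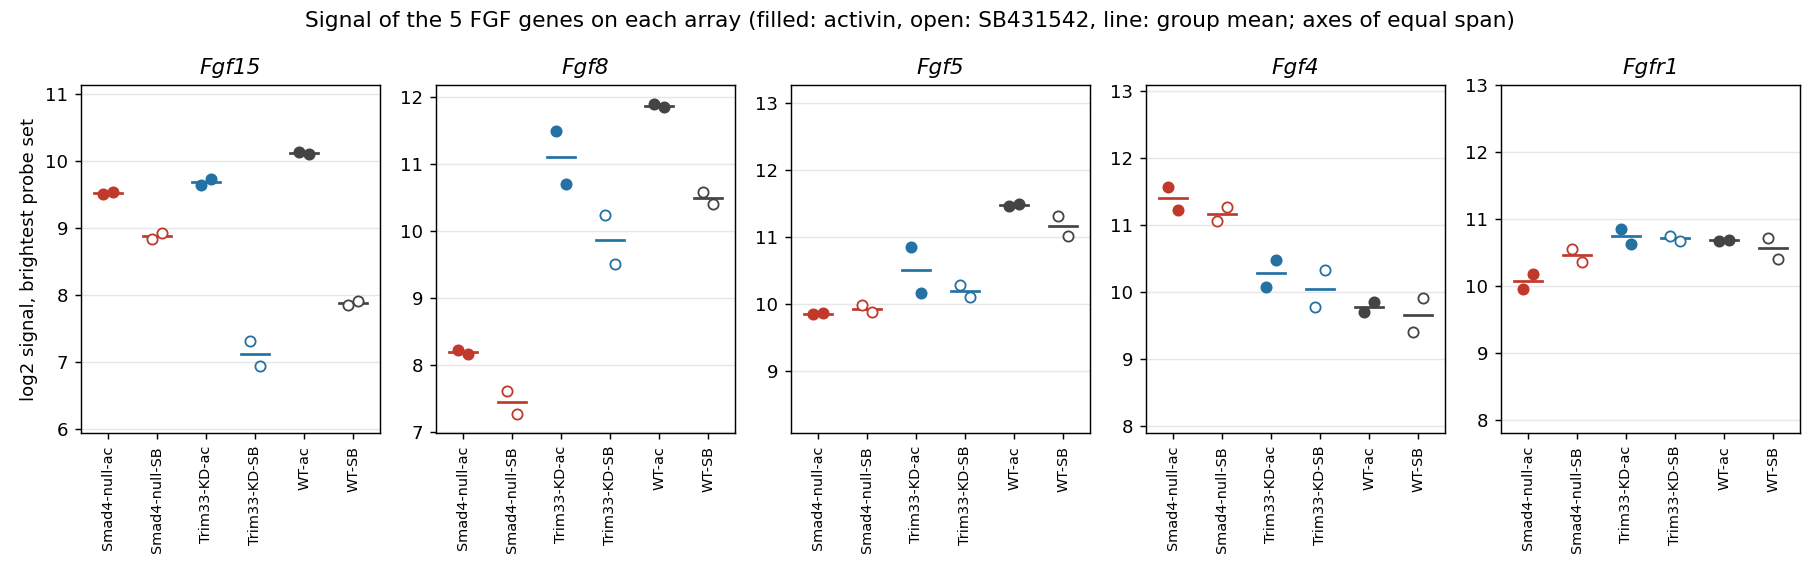
Log2 signal of the probe set with the highest mean of each gene (vertical axes, of equal span) on each of the 12 arrays, by group (horizontal axes); points are arrays, filled for activin and open for SB431542, and lines are group means (n = 2). Fgf15 separates by treatment, least in Smad4-null, while Fgf8, Fgf5 and Fgf4 separate Smad4-null from WT.

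**Figure D2:**
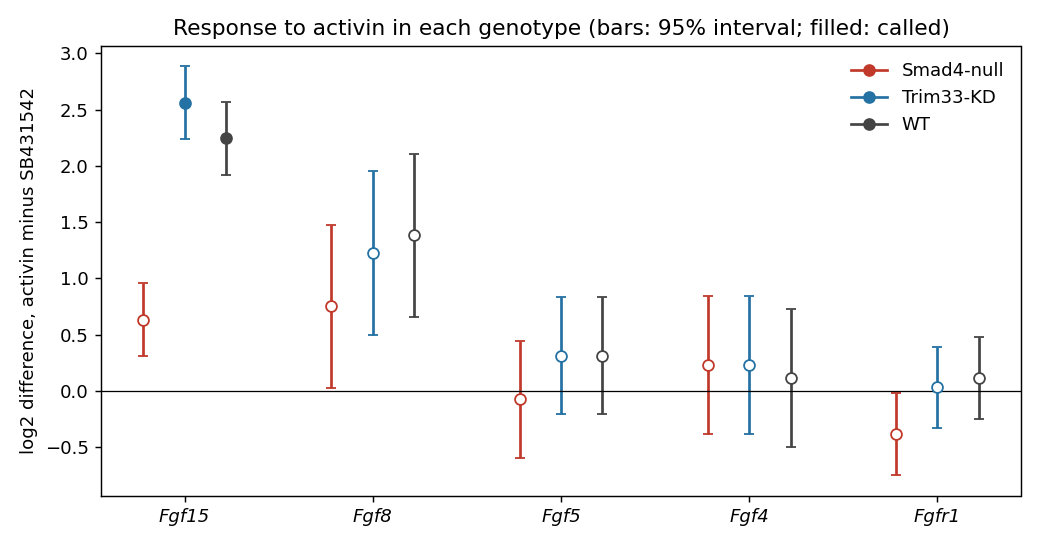
Log2 response, activin minus SB431542, with its 95% interval (vertical axis) of each gene (horizontal axis) in Smad4-null, Trim33-KD and WT; filled points passed the test among all genes. Fgf15 is at 0.63, 2.56 and 2.24 and is the only gene with filled points.

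Fgf15 and Fgf4 lie beside each other on chromosome 7, where the order of protein-coding genes in the RefSeq assembly GRCm38.p6 is Ano1, Fgf3, Fgf4, Fgf15, LTO1 and Ccnd1. Limma called Fgf15 alone of these 6 in the WT response. The log2 response in WT was 0.25 for Fgf3, 0.11 for Fgf4, -0.28 for LTO1 and 0.19 for the cyclin gene Ccnd1, and -0.07 for the chloride channel gene Ano1, and 0 of these 5 passed. In Smad4-null minus WT Fgf4 was higher (1.56), and Ccnd1 (-0.24), LTO1 (-0.13) and Ano1 (-0.19) did not pass. Fgf3 was called (-0.77, limma adjusted p = 0.0218), but its linear signal was under 64 on every array and it was not called with values floored at 64.

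Fgf8 had the largest difference of the 5 genes between Smad4-null and WT. In Smad4-null the signal was 8.22 and 8.16 with activin and 7.61 and 7.26 with SB431542. In Trim33-KD it was 11.49 and 10.70 with activin and 10.24 and 9.50 with SB431542. In WT it was 11.89 and 11.85 with activin and 10.58 and 10.39 with SB431542. All 4 Smad4-null arrays lay below all 8 others, and 25.8% of all genes had no overlap between Smad4-null and WT in either direction. Fgf8 was 10.3-fold lower in Smad4-null than in WT (log2 difference -3.37, SE 0.22, limma adjusted p = 0.000166). The difference was -3.68 with activin (limma adjusted p = 0.00115) and -3.05 with SB431542 (0.00291), so it was present in embryoid bodies whose activin receptors were inhibited for 2 h. In Smad4-null minus WT limma called 18.4% of all genes (7.12% raised and 11.3% lowered), and 3 of the 5 genes, Fgf8, Fgf5 and Fgf4. These 3 calls held in every alternative fit that could test them and in every fit that left out 1 array.

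Within each genotype both activin arrays of Fgf8 were above both SB431542 arrays, but no response passed. It was 0.75 in Smad4-null (95% interval 0.02 to 1.48, limma adjusted p = 0.719), 1.23 in Trim33-KD (0.50 to 1.95, 0.843) and 1.38 in WT (0.65 to 2.11, 0.574). The Smad4-null response minus the WT response was -0.63, with an interval of -1.66 to 0.40. In Trim33-KD the replicates stood apart, with replicate 1 above replicate 2 under either treatment. Trim33-KD minus WT was -0.70 (SE 0.22, limma adjusted p = 0.189), and 0.649% of all genes were called in that comparison. Over the group means no 2 neighbours overlapped, in the order WT-ac (11.87), Trim33-KD-ac (11.09), WT-SB (10.49), Trim33-KD-SB (9.87), Smad4-null-ac (8.19) and Smad4-null-SB (7.44). As for Fgf15, groups of 2 arrays can separate without a difference, and the share of all genes that do so is not given.

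The primitive streak and mesendoderm markers moved with Fgf8. Of the 9 measured genes of that list, 8 were lowered in Smad4-null and 0 were raised, beside 11.3% lowered and 7.12% raised among all genes. Without the arrays of narrow spread, 6 were lowered and 0 raised. Among the lowered genes were the streak factor genes Eomes (-3.65) and Mixl1 (-4.26). Mixl1 was at -4.09 with values floored at a linear signal of 64, which 2 of its 4 Smad4-null arrays were under. The summed linear signal of the 9 genes was 934, 908, 729 and 695 in Smad4-null, with the activin arrays first. In Trim33-KD it was 6766 and 3305 with activin and 3344 and 2441 with SB431542. In WT it was 10457 and 10642 with activin and 5281 and 4826 with SB431542. The sum and Fgf8 were both higher on replicate 1 than on replicate 2 of each Trim33-KD group. Fewer cells of a kind and less RNA per cell cannot be told apart in such bulk samples.

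Fgf5, the epiblast marker, was also lower in Smad4-null. The signal was 9.84 and 9.87 with activin and 9.98 and 9.87 with SB431542 in Smad4-null. It was 10.85 and 10.16 with activin and 10.28 and 10.10 with SB431542 in Trim33-KD, and 11.46 and 11.49 with activin and 11.32 and 11.01 with SB431542 in WT. By this probe set, the brighter of 2, the 4 Smad4-null arrays lay below all others, and the 4 WT arrays above all others. Between Smad4-null and WT, 25.8% of all genes had no overlap in either direction. Fgf5 was 2.69-fold lower in Smad4-null than in WT (log2 difference -1.43, SE 0.16, limma adjusted p = 0.00117). The difference was -1.62 with activin (limma adjusted p = 0.00652) and -1.24 with SB431542 (0.0172). With SB431542 it did not pass without WT-SB replicate 1 (-1.08, limma adjusted p = 0.0673), Smad4-null-SB replicate 1 (-1.29, 0.0803) or Smad4-null-SB replicate 2 (-1.18, 0.102). The other Fgf5 probe set, 1426186_a_at, had a difference of -1.78 (limma adjusted p = 0.00685 among all probe sets, of which 8.84% were called). On 1426186_a_at Trim33-KD-SB replicate 2 read 7.71, below all 4 Smad4-null arrays (7.72 to 8.17), and the WT arrays were above all others.

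Fgf5 in Trim33-KD lay between the other genotypes. Trim33-KD minus WT was -0.97 (95% interval -1.34 to -0.61) with a limma adjusted p of 0.0518, just outside the threshold, and all 4 Trim33-KD arrays were below all 4 WT arrays, as was so in either direction for 12.4% of all genes. Without Trim33-KD-ac replicate 1 it passed (-1.15, limma adjusted p = 0.0279). In the upper 50% of genes by mean signal, where limma called 8.65%, Fgf5 (limma adjusted p = 0.00264), Fgf15 (-0.59, 0.00429) and Fgf8 (0.0433) passed. Over all genes Fgf15 had an adjusted p of 0.0533 by limma, and it passed without Trim33-KD-SB replicate 1 (-0.69, limma adjusted p = 0.0465). Trim33-KD minus WT and Smad4-null minus WT share the WT arrays, so likeness between them is not a result. Of the 8 marker lists, 2 genes passed in Trim33-KD minus WT over all genes, where limma called 0.649%. They were the epiblast factor gene Otx2 (-0.95, limma adjusted p = 0.0324) and the neural factor gene Pax6 (-0.80, 0.0353). The 7 trophectoderm markers, 0 of them called, summed to a linear signal of 5848 and 11428 with activin and 5548 and 11688 with SB431542 in Trim33-KD, with replicate 1 first. In WT the sums were 4609 and 5182 with activin and 4337 and 5293 with SB431542. The keratin genes Krt8 and Krt18 were the brightest of the 7 (mean log2 signal 10.97 and 10.95) and so weigh most in these sums. The Trim33-KD replicate 2 arrays, high in this sum, were the ones lower than replicate 1 for Fgf8 and for the streak markers, and also for Fgf5. The part of these markers in the Trim33-KD values was not tested.

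Fgf5 showed no response that passed. Activin minus SB431542 was -0.07 in Smad4-null (95% interval -0.59 to 0.44), 0.31 in Trim33-KD (-0.20 to 0.83) and 0.31 in WT (-0.21 to 0.83). By the brighter probe set the order of group means was WT-ac (11.48), WT-SB (11.16), Trim33-KD-ac (10.50), Trim33-KD-SB (10.19), Smad4-null-SB (9.93) and Smad4-null-ac (9.85). Only the Trim33-KD groups overlapped in it.

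Fgf4 went the other way. In Smad4-null the signal was 11.58 and 11.23 with activin and 11.06 and 11.27 with SB431542. In Trim33-KD it was 10.08 and 10.49 with activin and 9.78 and 10.33 with SB431542. In WT it was 9.71 and 9.85 with activin and 9.41 and 9.92 with SB431542. The 4 Smad4-null arrays were above all others, and Trim33-KD overlapped with WT. Between Smad4-null and WT, 25.8% of all genes had no overlap in either direction. Fgf4 was 2.95-fold higher in Smad4-null than in WT (log2 difference 1.56, SE 0.19, limma adjusted p = 0.00159). It was 3.08-fold with activin (log2 difference 1.62, limma adjusted p = 0.0114) and 2.83-fold with SB431542 (limma adjusted p = 0.0156). With activin it did not pass without WT-ac replicate 1 (1.55, limma adjusted p = 0.0713), WT-ac replicate 2 (1.69, 0.0582) or Smad4-null-ac replicate 1 (1.45, 0.0743). With SB431542 it did not pass without WT-SB replicate 1 (1.25, limma adjusted p = 0.0598), Smad4-null-SB replicate 1 (1.61, 0.0687) or Smad4-null-SB replicate 2 (1.40, 0.0994). Trim33-KD minus WT was 0.45 (SE 0.19, limma adjusted p = 0.283). No response passed: the differences were 0.23 in Smad4-null (95% interval -0.38 to 0.85), 0.23 in Trim33-KD (-0.38 to 0.84) and 0.11 in WT (-0.50 to 0.73).

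Of the 4 Fgf4 probe sets, the 3 brighter ones had positive means of Smad4-null minus WT, with different sizes. Probe set 1420086_x_at gave 1.63 (limma adjusted p = 0.00334 among all probe sets) beside 1.56 for 1420085_at (0.00392). Probe set 1450282_at gave 0.88 (0.0813). Probe set 1449729_at was under a linear signal of 64 on every array, so its difference of 2.15 (SE 0.86, limma adjusted p = 0.192) is not counted. The platform table derives 1420085_at, 1420086_x_at and 1449729_at from the same source sequence, so they are not independent. On 1449729_at WT-SB replicate 1 read 0.21, against 3.77 to 4.69 on the other WT arrays. In Trim33-KD minus WT, 0 of the 11 probe sets passed when all were tested (0.113% of probe sets called).

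The naive pluripotency markers moved with Fgf4. In Smad4-null 9 of 12 were raised, among them Nr0b1 (1.71), Zfp42 (1.26) and Tcl1 (1.35), and 1 was lowered. Without the arrays of narrow spread, 8 were raised and 0 lowered. Over all genes and arrays, 7.12% of genes were raised and 11.3% lowered, shares that apply to each list in this paragraph. The summed linear signal of the 12 naive markers was 24518 to 28629 in Smad4-null, 14832 to 17493 in Trim33-KD and 13335 to 14757 in WT. Of the core pluripotency markers 3 of 6 were raised and 2 lowered (2 and 0 without those arrays), with a summed signal of 41841 to 42546 in Smad4-null, 38858 to 42068 in Trim33-KD and 36207 to 41578 in WT. Of 7 primed epiblast markers 2 were raised, Pou3f1 (0.92) and Dnmt3a (0.46), and 1 was lowered, the activin antagonist gene Fst (-4.72). The median log2 difference of these 7 was 0.20. Fibroblast markers summed to 517 to 632 in Smad4-null and 522 to 651 in WT, with Col1a1, Postn, Lum and S100a4 under a linear signal of 64 on every array. The part of cell makeup in the FGF differences was not tested.

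Fgf5 and Fgf4, called in opposite directions in Smad4-null, are the 2 of the 5 genes with a start site in the RefSeq promoter table (GRCm38.p6). The 250 bases before each start are shown to set the windows side by side, with the TATA-like run in capitals. Both are on the plus strand, Fgf5 at chr5:98253934-98254183 and Fgf4 at chr7:144861136-144861385.
Fgf5: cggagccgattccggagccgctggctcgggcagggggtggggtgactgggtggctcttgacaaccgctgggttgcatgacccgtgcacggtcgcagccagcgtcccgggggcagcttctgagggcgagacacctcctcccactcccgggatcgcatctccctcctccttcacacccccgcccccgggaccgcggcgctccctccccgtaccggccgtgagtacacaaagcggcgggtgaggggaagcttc
Fgf4: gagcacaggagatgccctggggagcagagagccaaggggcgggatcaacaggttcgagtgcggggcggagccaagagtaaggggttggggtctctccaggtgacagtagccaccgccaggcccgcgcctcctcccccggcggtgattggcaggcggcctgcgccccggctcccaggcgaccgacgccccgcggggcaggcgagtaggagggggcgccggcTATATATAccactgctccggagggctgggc
Both windows were rich in G and C, with 70.8% in Fgf5 and 71.2% in Fgf4, against a median of 52.4% over 32851 promoters. The capitals in Fgf4 hold 2 overlapping matches to TATATA, 30 and 28 bases before the start, a string found in 5.25% of all promoters on either strand. The TATA box string TATAAA was in neither window (12.4% of promoters). The Sp1 box GGGCGG occurred 2 times in Fgf4 and 1 time in Fgf5 (32.7% of promoters). The GC-type Smad element GGCGCC occurred 1 time in Fgf4, 39 bases before the start (9.59%), and the Smad box CAGAC in neither (42.2%). The Ets core CCGGAA occurred 1 time in Fgf5, 241 bases before the start (12%). The T-box site AGGTGTGA (1.12%), the Tcf/Lef site CTTTGAT (3.21%), the Foxh1 site TGTGNATT (3.18%) and the octamer ATTTGCAT (1.6%) were in neither window. Both strands were searched, and a match is a description of letters only.

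Fgfr1 varied the least of the 5 genes over the 12 arrays, by its probe set with the highest mean. In Smad4-null the signal was 9.96 and 10.19 with activin and 10.56 and 10.36 with SB431542. In Trim33-KD it was 10.85 and 10.64 with activin and 10.75 and 10.68 with SB431542. In WT it was 10.68 and 10.69 with activin and 10.73 and 10.41 with SB431542. By the probe set with the highest mean, Smad4-null-ac was below every other group, and all other neighbours in the order of group means overlapped. Smad4-null minus WT was -0.36 (95% interval -0.62 to -0.10, limma adjusted p = 0.0618). It was -0.61 with activin (limma adjusted p = 0.0526) and -0.11 with SB431542 (0.735), and the Smad4-null response minus the WT response was -0.50 (interval -1.02 to 0.01, limma adjusted p = 0.698).

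The receptor difference was called in some settings and not in others. In the gene fit Smad4-null minus WT was called in 5 of the 14 other settings and in 1 of the 12 fits that left out 1 array, that without WT-SB replicate 2 (-0.44, limma adjusted p = 0.0406). Under activin it was called in 6 of the 14 other settings, with the lowest limma adjusted p at 0.00959, and without WT-SB replicate 1 or replicate 2 (0.0434 each). Probe set 1436551_at, tested among all probe sets, passed in Smad4-null minus WT (-0.58, limma adjusted p = 0.0276), while 1425911_a_at (-1.04, SE 0.32, 0.0995) and 1424050_s_at (-0.36, 0.136) did not. On 1425911_a_at the 2 WT replicates differed by more than 1 unit with either treatment, with 10.84 and 9.75 with activin and 10.70 and 9.53 with SB431542. Smad4-null-ac overlapped with Smad4-null-SB on 1436551_at (7.56 and 7.74 against 7.84 and 7.58). The same held on 1425911_a_at (9.22 and 8.93 against 9.28 and 9.21). Trim33-KD minus WT was 0.10 for Fgfr1 (95% interval -0.15 to 0.36).

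**Figure D3:**
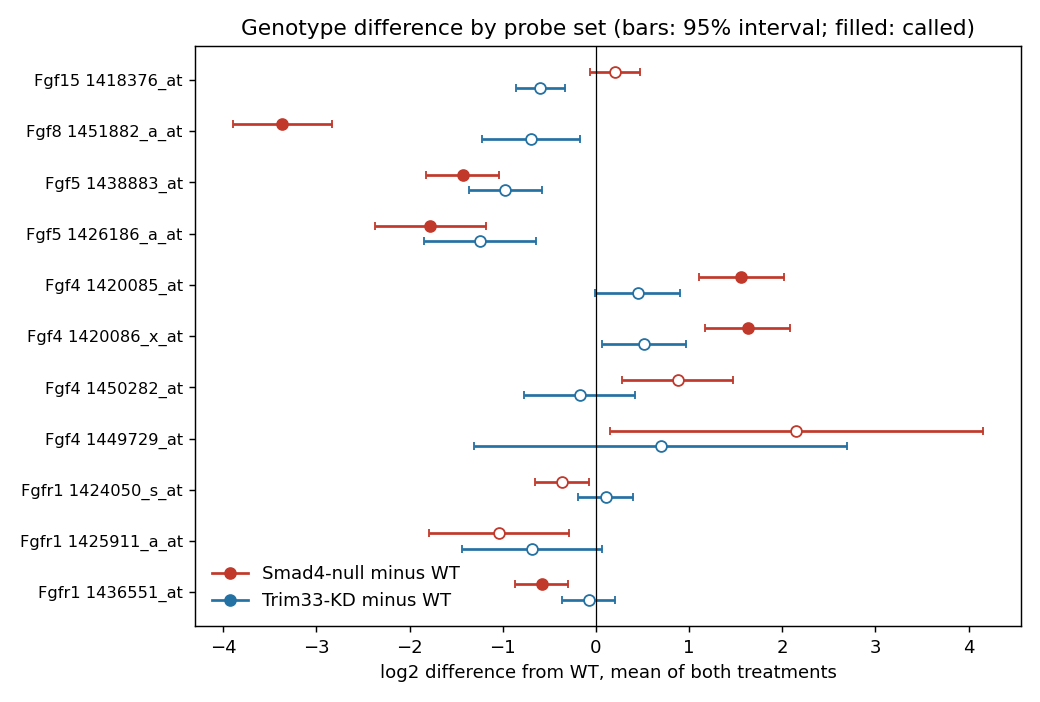
Log2 difference with its 95% interval (horizontal axis) of each of the 11 probe sets (vertical axis), Smad4-null minus WT and Trim33-KD minus WT, averaged over the treatments; filled points passed the test among all probe sets. Fgf8 is at -3.37, both Fgf5 probe sets at -1.43 and -1.78, and the 3 brighter Fgf4 probe sets at 0.88 to 1.63 in Smad4-null, while 1449729_at was under a linear signal of 64 on every array.

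Among 18 other FGF ligand genes, 2 were raised and 3 lowered in Smad4-null, beside 7.12% raised and 11.3% lowered among all genes, with a median log2 difference of 0.00 against -0.03 over all genes. Fgf18, whose protein acts in bone and lung development, was 7.02 and 6.81 with activin and 6.58 and 6.58 with SB431542 in Smad4-null, against 5.21 and 5.54 with activin and 4.65 and 4.94 with SB431542 in WT. It rose (limma adjusted p = 0.000584) with no overlap between the genotypes, as for 25.8% of all genes in either direction. All 4 WT arrays were under a linear signal of 64, so the size is not exact. With values floored at 64 the log2 difference was 0.75 (limma adjusted p = 0.000171). Fgf1, a ligand that can bind all FGF receptors, rose by 0.87 (0.73 with the floor, which 2 WT arrays were under). Fgf17, which is made with Fgf8 in parts of the embryo, fell (-1.02, and -0.89 with the floor, which 2 Smad4-null arrays were under), as did Fgf13 (-0.56), which encodes an FGF homologue that stays inside the cell. The third lowered call was Fgf3 (-0.77), under 64 on every array, so that 2 ligands were raised and 2 lowered with the floor. Without the arrays of narrow spread, 2 of these ligands were raised and 2 lowered.

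Of 9 other receptor and co-receptor genes 2 were raised and 1 was lowered (the same counts without the arrays of narrow spread), beside the same 7.12% and 11.3% of all genes. Fgfr2 was 9.52 and 9.56 with activin and 9.49 and 9.35 with SB431542 in Smad4-null, against 8.55 and 8.44 with activin and 8.29 and 8.79 with SB431542 in WT. It rose 1.95-fold (0.96, limma adjusted p = 0.00252) with no overlap, as for 25.8% of all genes in either direction, and Fgfr3 rose by 0.56 (0.0351). Flrt2, a membrane protein that binds FGF receptors, fell by 1.47 on the log2 scale, but its linear signal was under 64 on every array and it was not called with values floored at 64. Of 12 measured genes that carry the signal from receptor to ERK, 1 was raised (Gab1, 0.54) and 4 were lowered, namely Sos1 (-0.88), the adaptor gene Shc1 (-0.74), Sos2 (-0.67) and Ptpn11 (-0.34), beside 7.12% raised and 11.3% lowered among all genes. Without the arrays of narrow spread, 0 of the 12 were raised and 3 lowered.

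The ERK feedback and target genes were mostly lower in Smad4-null. Of 19 measured, 12 were lowered and 1 was raised (10 and 1 without the arrays of narrow spread), beside 11.3% lowered and 7.12% raised among all genes, and their median was -0.80 against -0.03. With values floored at a linear signal of 64, 11 were lowered and 1 was raised, with a median of -0.72. Dusp6, which encodes a phosphatase that inactivates ERK, was 10.90 and 11.11 with activin and 11.42 and 11.27 with SB431542 in Smad4-null, against 12.43 and 12.42 with activin and 12.16 and 12.34 with SB431542 in WT. All Smad4-null arrays were below all WT arrays, as was so in either direction for 25.8% of all genes (-1.16, limma adjusted p = 0.00258). Spry2, a Sprouty gene, was 10.39 and 10.55 with activin and 10.46 and 10.39 with SB431542 in Smad4-null, against 11.79 and 11.94 with activin and 11.86 and 11.68 with SB431542 in WT (-1.37, limma adjusted p = 0.00210). Spred3 (-1.14), Fos (-1.37) and Myc (-0.80) fell too, with limma adjusted p from 0.00110 to 0.00222, while Spry1 rose by 0.49 (limma adjusted p = 0.0151). Earlier results of these data were known when the list was drawn up, so its direction is a description.

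In the 3 responses, 0 members of these 4 lists passed the test. The nearest was the transcription factor gene Myc, at 0.15 in Smad4-null (limma adjusted p = 0.875), with an adjusted p of 0.214 in Trim33-KD and a difference of 1.13 in WT (0.128). In Trim33-KD minus WT 0 members of these lists passed, and the median of the ERK feedback and target genes was -0.06.

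**Figure D4:**
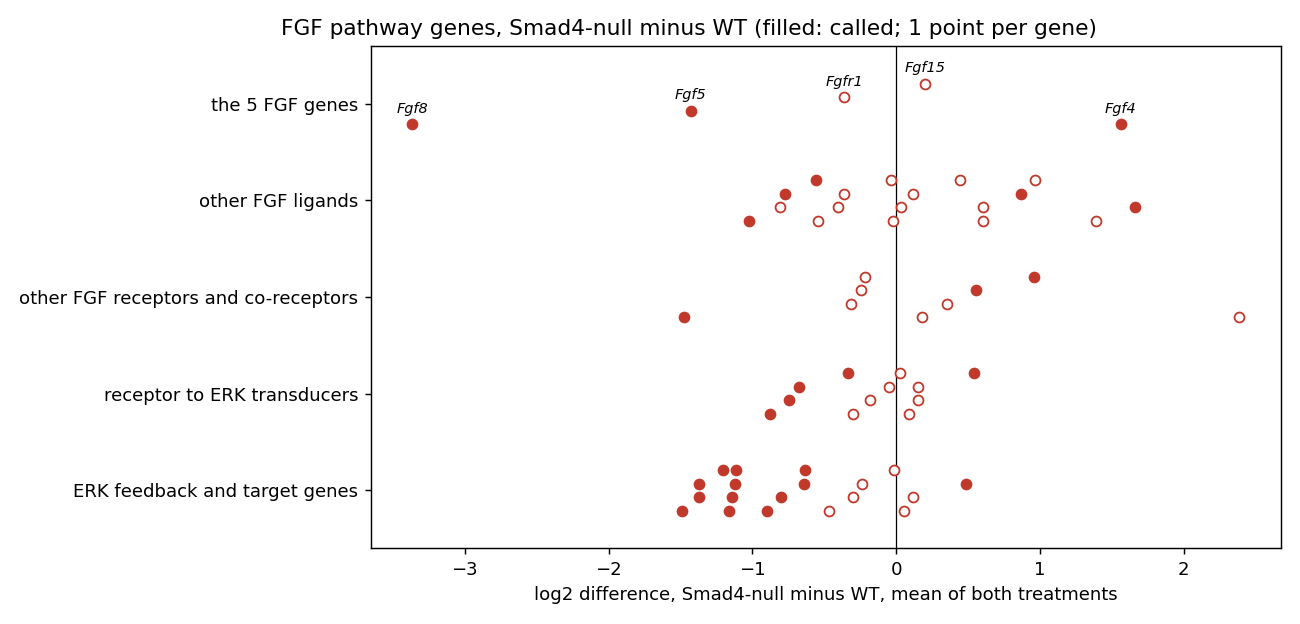
Log2 difference Smad4-null minus WT, mean of both treatments (horizontal axis), of each measured gene of the FGF pathway, 1 point per gene, grouped by role (vertical axis) and spread within a row for sight only; filled points passed limma's test. In the ERK feedback and target row 12 filled points are below 0 and 1 is above, and 11 were lowered with values floored at a linear signal of 64.

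Genes with the most similar pattern over the 12 arrays were named for each member from 9091 genes of the upper 50% by mean signal, as a description that follows the 6 shared groups. For Fgf15 they were Irf1 (Pearson's r 0.92, Spearman's rho 0.91), Kazn, Ago1, Rnd3 and Zbed5 (r 0.88 to 0.90). For Fgf8 they were Axin2 (r 0.99, with the same rank order on all arrays), a target gene of Wnt signalling, then Lzts1, Vrtn, Mixl1 and Mycl (r 0.98 to 0.99). For Fgf5 they were Ssbp3 (r 0.96, rho 0.93), Pdzrn3, Usp3, Adamts9 and Ctnnbip1. For Fgf4 they were Gdf3 (r 0.98, rho 0.93), Nip7, Lad1, Mrps17 and Epas1, and for Fgfr1 Golim4 (r 0.95, rho 0.91), Manea, Rbm26, Ube2d1 and Ciao2a. The r of Fgf15 with its nearest gene was the lowest of the 5.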

How the data were processed

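Total RNA of 12 embryoid body samples was measured on Affymetrix mouse arrays. Each probe set has 1 deposited value per array, a signal on the log2 scale, judged from the values. The submitters' processing notes name limma without a version; the method that summarized the probes was not given in the sources used. Each array has a mean linear signal of 500 after trimming. The values were used unchanged; arrays have no read depth, and their number sets the precision. The platform table gave 1 symbol to 34945 probe sets, several to 932 and none to 9160. The probe set with the highest mean stood for each of 18193 genes. A model of 6 group means was fitted with limma 3.58.1 in R 4.3.3 (6 residual degrees of freedom, Benjamini-Hochberg adjustment over all genes), and tested on simulated data. Promoter sequences were read and figures drawn with Python 3.11.15 and matplotlib 3.10.9.

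The members and lists were chosen with earlier results of these data known. The rule for named genes took the 5 genes with every probe set, Smad4 and Trim33, up to 4 members of each list with the smallest adjusted p among those past the threshold, every other ligand and receptor that passed, and the 5 genes nearest in pattern to each of the 5. Some genes of the lists are not reported here. Dusp6, Spry1, Sos2, Krt8, Krt18, Myc's responses and the neighbours on chromosome 7 were named outside this rule, after their values were seen. The markers of neuroectoderm (1 raised and 2 lowered in Smad4-null minus WT), extraembryonic endoderm (0 and 3) and trophectoderm (0 and 1) were counted too. Arrays were not paired by replicate number, since the labels do not say what it marks. Over 15 pairs of groups, deviations of equally numbered arrays correlated between -0.14 and 0.05. Single genes can still share an offset, as Fgf8 in Trim33-KD was higher on replicate 1 under either treatment. Alternatives were 2 other scalings, filters on dim genes, a floor of 64, array weights, other uses of a gene's probe sets, a robust prior with a trend, fewer arrays, a replicate block and a 1.5-fold threshold.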

Additional observations from a re-analysis of the deposited data

Results flagged for a closer look

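Fgf15 stood out because Smad4-null minus WT had opposite signs under the treatments, -0.60 with activin and 1.01 with SB431542, with no overlap of the arrays in either. The difference between them was -1.61, with a limma adjusted p of 0.226 over all genes (0.0129 to 0.681 over the other settings).

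Fgf5 stood out because both activin arrays were below both SB431542 arrays in Smad4-null (-0.07) and above them in WT (0.31), by the brighter probe set. In Smad4-null the nearest arrays were barely apart, at 9.8655 with activin and 9.8748 with SB431542. On 1426186_a_at the WT arrays overlapped, with 10.22 and 9.79 with activin and 9.86 and 9.15 with SB431542. The difference between the Smad4-null and WT responses by the brighter probe set was -0.39, with a limma adjusted p of 0.792.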

How the results depend on the processing

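In Smad4-null minus WT the calls of Fgf8, Fgf5 and Fgf4 held in all 12 fits without 1 array. They also held in the 14 other settings, except where Fgf8 could not be tested. That setting left out probe sets ending in _a_at, _s_at or _x_at, and the only Fgf8 probe set ends in _a_at. All other calls changed somewhere, and the cause was not tested except where fewer arrays or genes entered. The number of the 5 genes called was 3 in Smad4-null minus WT, and 3 to 4 when each array was left out in turn. It was 4, Fgfr1 included, in the upper 50% and 75% of genes, with the mean of probe sets and with the trended robust prior. Fgfr1 was also called without probe sets ending in _a_at, _s_at or _x_at, where Fgf8 could not be tested. Under activin it was 4, but 5 in the upper 50% and 75% of genes, with the floor of 64, the trended robust prior and array weights (2 to 4 leaving out each array, 3 with all probe sets or the replicate block, 2 with the mean of probe sets, 1 without the arrays of narrow spread, 0 with only the groups compared and 1 at a threshold of 1.5-fold). Under SB431542 it was 4 (1 to 4 leaving out each array, and 1, 0 and 1 in the last 3 of those settings). In Trim33-KD minus WT it was 0 (0 to 1 leaving out each array), but 1 with quantile normalization, 3 in the upper 50% of genes and 2 in the upper 75%, with the floor of 64 and with the trended robust prior; under SB431542 it was 0, but 2 in the upper 50% and with that prior. The WT and Trim33-KD responses each had 1 (0 to 1 leaving out each array, and 0 without the arrays of narrow spread or with only the groups compared). The Smad4-null response minus the WT response had 0, but 1 in the upper 50% and with the trended robust prior. The Trim33-KD response minus the Smad4-null response had 0, but 1 in those settings and with the floor.

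With the replicate block the count was 3 in Smad4-null minus WT, 4 under SB431542 and 3 under activin, where Fgf15 was lost (limma adjusted p = 0.0608); it was 1 in the WT and Trim33-KD responses and 0 elsewhere, and no other call changed. The labels do not say what the replicate number marks, so a lost call is not read as a weaker effect.

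Signs turned only for differences that did not pass. Median centring turned Fgf4 in the Smad4-null minus WT response (-0.16), Fgf5 (-0.12) and Fgf4 (-0.0071) in the Trim33-KD minus WT response, Fgf4 in the Trim33-KD minus Smad4-null response (0.15) and Fgfr1 in Smad4-null minus WT under SB431542 (0.062). It moved the median of all genes to -0.17, against 0.11, in the Smad4-null minus WT response, and to 0.16, against -0.04, in Trim33-KD minus WT. The mean of probe sets turned Fgfr1 in the Trim33-KD response (-0.11) and in Trim33-KD minus WT (-0.22; -0.086 under SB431542 and -0.35 under activin), and Fgf4 in the Smad4-null minus WT (-0.48), Trim33-KD minus WT (-0.41) and Trim33-KD minus Smad4-null responses (0.063). Without probe sets ending in _a_at, _s_at or _x_at, Fgfr1 turned in the Trim33-KD response (-0.36) and the Trim33-KD minus Smad4-null response (-0.30). In that setting it also turned in Trim33-KD minus WT (-0.075, and -0.35 under activin). Without the arrays of narrow spread Fgfr1 turned in the WT response (-0.042), the Trim33-KD minus WT response (0.072) and Trim33-KD minus WT under SB431542 (-0.012), and Fgf4 in the Smad4-null minus WT (-0.31), Trim33-KD minus WT (-0.14) and Trim33-KD minus Smad4-null responses (0.17).

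Leaving out 1 array gave ranges that crossed 0. In the WT response they were -0.14 to 0.37 for Fgf4 and -0.042 to 0.28 for Fgfr1. In the Trim33-KD response they were -0.043 to 0.51 for Fgf4, -0.034 to 0.66 for Fgf5 and -0.078 to 0.14 for Fgfr1. In the Trim33-KD minus WT response they were -0.16 to 0.39 for Fgf4, -0.35 to 0.35 for Fgf5, -0.55 to 0.24 for Fgf8 and -0.25 to 0.072 for Fgfr1. For Fgf4 they were -0.14 to 0.37 in the Smad4-null minus WT response and -0.28 to 0.27 in the Trim33-KD minus Smad4-null response. For Fgfr1 they were -0.27 to 0.051 in Smad4-null minus WT under SB431542, and -0.012 to 0.31 under SB431542 and -0.048 to 0.17 under activin in Trim33-KD minus WT.

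Over all genes the number called was 3356 in Smad4-null minus WT (456 to 4162 over the other settings), 1690 under activin (0 to 2468) and 1656 under SB431542 (0 to 2406). It was 118 in Trim33-KD minus WT (1 to 787), 6 in the WT response (0 to 14) and 2 in each of the Trim33-KD (0 to 13) and Smad4-null responses (0 to 11). With 2 arrays a group, small differences in the receptor gene and in the responses of Fgf5 and Fgf4 could not be resolved. The Fgf8 responses were larger (0.75 in Smad4-null, 1.23 in Trim33-KD and 1.38 in WT) but did not pass among all genes.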
